A study of Mus musculus with 2 samples.

Results

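The 7 long noncoding RNAs Meg3, Rian, Mirg, Malat1, Neat1, Miat and Snhg11, retained mainly in the nucleus, were followed in single nuclei of the mouse thalamus. They were chosen by name, and their rows are 7 of the 32285 gene rows in each count matrix. The Injury library came from C57BL/6J female mice that received a one-sided Cortical ablation injury, the removal of sensory and motor cortex, at the age of 3 months, and the Sham library came from mice of the same strain, sex and age that had sham surgery. The thalamus was taken from the operated side 21 days later, and each library is a pool of 4 mice that contributed the same number of nuclei. The nuclei were isolated by flow sorting on a DNA dye, and 3′ ends of their RNA were read with 10x Genomics droplets. Each group is therefore 1 library of pooled mice. No spread between mice can be given and no test between groups was possible, so every interval below is a 95% interval for counting error only (exact Poisson for a level, exact binomial for a share or a ratio).

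These RNAs act in the nucleus in different ways. Meg3, Rian and Mirg are transcribed in the same direction from the maternal copy of the imprinted Dlk1-Dio3 domain, and Rian and Mirg carry clusters of small nucleolar RNAs and microRNAs in their introns. Malat1 is an abundant RNA of nuclear speckles, the bodies that hold splicing factors. Neat1 is the scaffold on which paraspeckles assemble. Miat, also called Gomafu, is a neuronal RNA that binds splicing factors through repeated motifs, and Snhg11 is the host of small nucleolar RNAs and is known from neurons.

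The Sham library held 16390 barcodes and 137850696 unique molecular identifiers (UMIs, each counted as 1 captured RNA molecule), and the Injury library held 21828 barcodes and 180106314 UMIs. A set of 101 barcodes occurred in both. After the filters of the study, 16373 and 21777 nuclei remained and were clustered without the members among the genes used. The compared classes were glutamatergic neurons (11657 Sham and 12160 Injury nuclei), GABAergic neurons (1990 and 3286), oligodendrocytes (744 and 1735), oligodendrocyte precursors (109 and 166), astrocytes (209 and 510) and microglia (27 and 154). The median nucleus held 7873 and 7970.5 UMIs in glutamatergic neurons but 1491.5 and 1504 in oligodendrocytes. The thalamic label could be checked in the glutamatergic neurons: Slc17a6, the vesicular glutamate transporter of the thalamus, stood at 165 and 151 CPM (counts per class total, scaled so that every class has the same total), Slc17a7 at 26.8 and 26.2, and the thalamic factor Tcf7l2 at 580 and 567. Slc17a6 exceeded Slc17a7 in 15 of the 17 glutamatergic clusters compared. The others were led by Ano1 (92.5 CPM of Slc17a6 and 141 of Slc17a7) and by Pde11a (103 and 114). A cluster led by Oxt, with Sim1 and Avp among its leading genes, was also in this class. Whether each single cluster lay within the thalamus was not tested. The clusters were rebuilt here, and some stood apart between libraries and were not compared: a cluster led by 4921539H07Rik with 0 Sham and 281 Injury nuclei, one led by Glis3, Maml2 and Gpc4 with 0 and 220, both with far more Slc17a7 than Slc17a6, and a GABAergic cluster led by Myo5b with 4 and 412. Of the 27 Sham microglia, 15 were called doublets.

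Meg3, Rian and Mirg lie on chromosome 12 of GRCm38, on the + strand, at chr12:109541001-109571726, chr12:109603940-109661716 and chr12:109729764-109749460. Malat1 (chr19:5795690-5802672) and Neat1 (chr19:5824708-5845478) lie next to each other on the - strand of chromosome 19. Miat lies at chr5:112213228-112229395 on the - strand and Snhg11 at chr2:158375638-158386145 on the + strand; the annotation lists Snhg11 as protein coding and the others as noncoding. The annotation places Gm26953 on the strand opposite to Miat, the one overlapping gene with a row of its own.

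Stretches of the member RNAs are shown because they carry the features for which these RNAs are known. Malat1 and the long form of Neat1 are cut at their 3′ ends without a poly(A) tail, whereas the short form of Neat1 is polyadenylated and is counted in the same row. A triple helix of U-rich stretches and an A tract protects the ends made by this cut. The GENCODE M21 transcripts of GRCm38 hold a 106-base window around the A tract of Malat1, 298 bases from the annotated end, and the last 60 bases of the long Neat1 transcript. Capitals mark the longest stretch that both windows share, 16 bases long, and runs of A: the run of 12 in Malat1, and runs of 4 or more in Neat1.
Malat1 around the A tract: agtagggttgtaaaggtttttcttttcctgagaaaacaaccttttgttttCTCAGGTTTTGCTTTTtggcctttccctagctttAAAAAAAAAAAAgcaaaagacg
Neat1 3′ end: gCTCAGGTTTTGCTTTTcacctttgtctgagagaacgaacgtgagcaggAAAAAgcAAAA
Miat repeats: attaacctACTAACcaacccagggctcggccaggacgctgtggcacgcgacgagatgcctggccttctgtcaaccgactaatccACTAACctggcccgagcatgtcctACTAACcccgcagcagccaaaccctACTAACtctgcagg
The Miat stretch of 147 bases has 4 of the 11 copies of ACTAAC in the transcript, in capitals, the motif bound by the splicing factor SF1. Searched on the transcript strand only, as many copies occurred in 5 of 4045 noncoding transcripts of 2000 bases or more (0.124%). The chemistry primes at runs of A, and a run of 10 or more A occurred 6 times in the longest Meg3 transcript, 1 time each in Rian and Malat1, and not in the other members; 16.7% of those noncoding transcripts held one.

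The start of the imprinted cluster is shown by the first of 2 RefSeq promoters of Meg3 (GRCm38.p6, + strand, chr12:109540746-109541045), with a cyclic AMP response element (TGACGTCA) and a TATA-like motif (TATATAAA) in capitals. Both motifs were searched on both strands.
Meg3 promoter: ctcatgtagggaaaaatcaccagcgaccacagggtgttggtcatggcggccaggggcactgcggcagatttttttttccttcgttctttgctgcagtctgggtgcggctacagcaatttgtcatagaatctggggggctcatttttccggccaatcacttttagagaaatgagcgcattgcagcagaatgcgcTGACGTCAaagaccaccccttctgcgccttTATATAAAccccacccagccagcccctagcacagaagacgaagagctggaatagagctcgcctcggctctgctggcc
The first motif occurred in 1.79% and the second in 1.4% of 32851 promoters of the same length, and neither in the second Meg3 promoter (chr12:109545148-109545447) or in those listed for Rian, Mirg, Malat1, Miat and Snhg11. A match is a description and not a binding site. No promoter of Neat1 was at hand.

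The end of the cluster is shown by microRNAs that lie within Mirg. RefSeq places 3 mature microRNAs in Meg3, 6 in Rian and 26 in Mirg, with 25 seeds among the 26. Small RNAs are not captured by this assay, so the host row is the only readout here. Shown are miR-134, known for its action on dendritic spines, miR-382 as its neighbour, and the only pair with a shared seed. Capitals mark the seed, bases 2 to 8.
miR-134-5p: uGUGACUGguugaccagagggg
miR-382-5p: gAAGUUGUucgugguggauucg
miR-453: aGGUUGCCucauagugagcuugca
miR-496a-5p: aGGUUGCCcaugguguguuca

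Together the 7 RNAs made up 4.90% of all UMIs of the Sham library and 4.99% of the Injury library. Malat1 ranked 1 of all genes in both libraries, Meg3 ranked 3 and Snhg11 ranked 7 in both. Rian ranked 100 and 109, Mirg 928 and 964, Miat 999 and 981, and Neat1 5907 and 3579. Per kilobase of exon, the level in Sham glutamatergic neurons was 4301 CPM for Malat1, 717 for Snhg11, 615 for Meg3, 59.9 for Rian, 24.7 for Mirg, 18.3 for Miat and 0.150 for Neat1. In Sham oligodendrocytes the same quantity was 9162 for Malat1, 73.7 for Snhg11, 61.0 for Neat1 and 56.6 for Meg3. Neat1 was thus the lowest member in neurons and stood beside Snhg11 and Meg3 in oligodendrocytes. Since this chemistry reads mostly 3′ ends, a level per kilobase is a convention and not a molecule count per length.

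**Figure D1:**
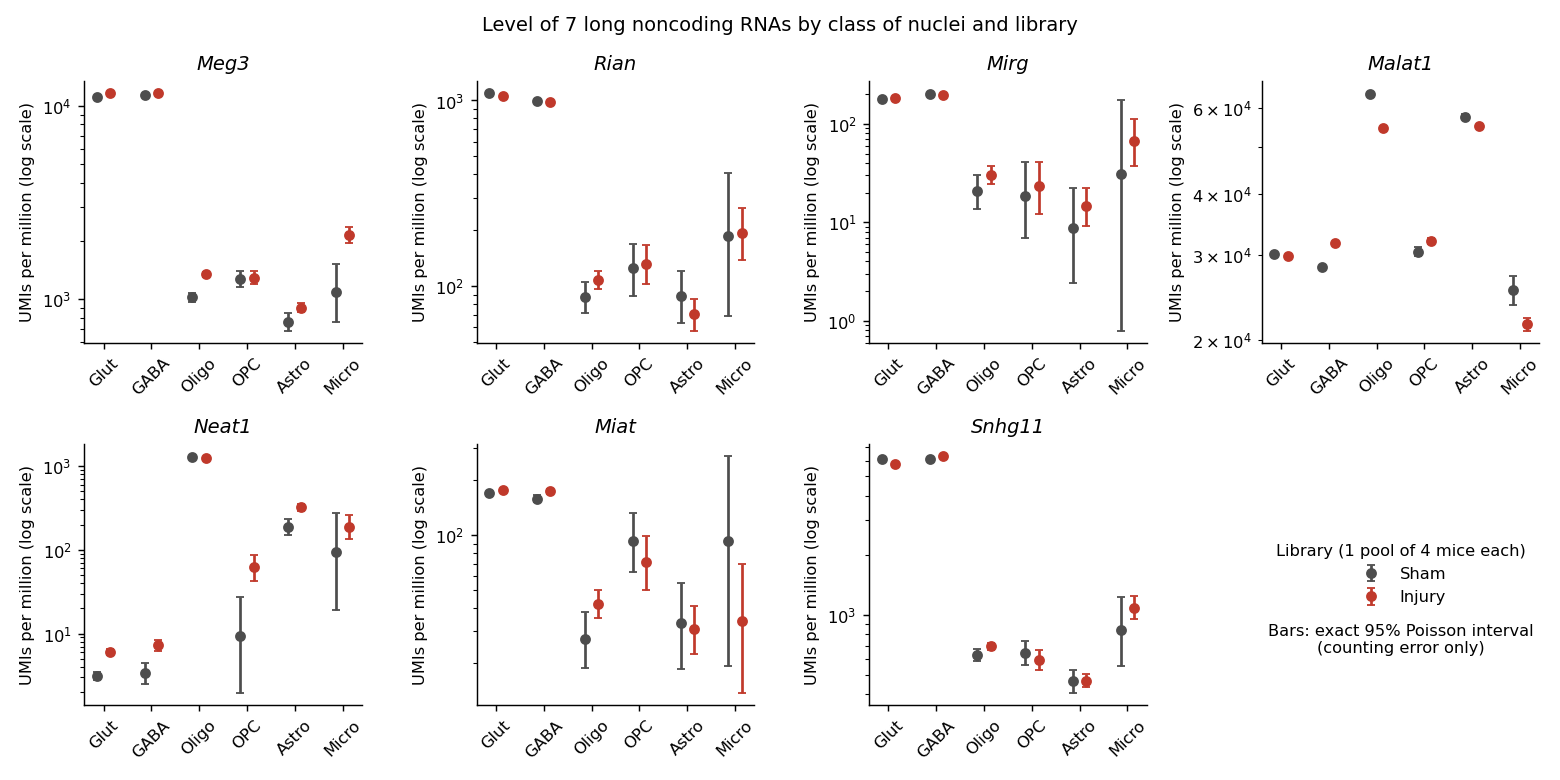
Level of each RNA in CPM (log axis, with its own range in each panel) in 6 classes of nuclei: glutamatergic (Glut) and GABAergic neurons, oligodendrocytes (Oligo), oligodendrocyte precursors (OPC), astrocytes (Astro) and microglia (Micro); points are the Sham and Injury libraries and bars are exact 95% Poisson intervals. Meg3, Rian, Mirg, Miat and Snhg11 were highest in both neuron classes, and Neat1 was highest in oligodendrocytes, at 1267 and 1241 CPM.

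In glutamatergic neurons, 1 of the 7 RNAs passed a difference of 0.25 on the log2 scale between the libraries, and that RNA was Neat1. The study used this size for its own calls in neuron clusters, together with a limit on the adjusted P. Here the size alone was applied to shares summed over a class. For comparison, 26.7% of the 19389 genes with 50 or more UMIs passed this difference in either direction. Neat1 was low in both libraries, at 3.12 CPM (328 UMIs) in Sham and 6.01 (682 UMIs) in Injury, a log2 ratio of 0.95 (0.75 to 1.14). The ratios of the other 6 RNAs lay between -0.09 and 0.06. In GABAergic neurons the count was again 1 of 7, Neat1, against 29.9% of 15393 genes. A low count makes such a difference easier to reach: of the genes with 1000 or more UMIs, 13.7% and 11.2% passed it in the neuron classes, and of genes with between a 2-fold lower and a 2-fold higher UMI sum than Neat1, 29.2% and 45.8% passed it. In glutamatergic neurons the same share was 4.19% around Rian, 5.31% around Mirg and 5.27% around Miat. It was 0% of 7 genes around Meg3 and 0% of 20 around Snhg11, and Malat1 had only 1 such gene. Ratios under 0.25 were thus usual at the counts of these RNAs.

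**Figure D2:**
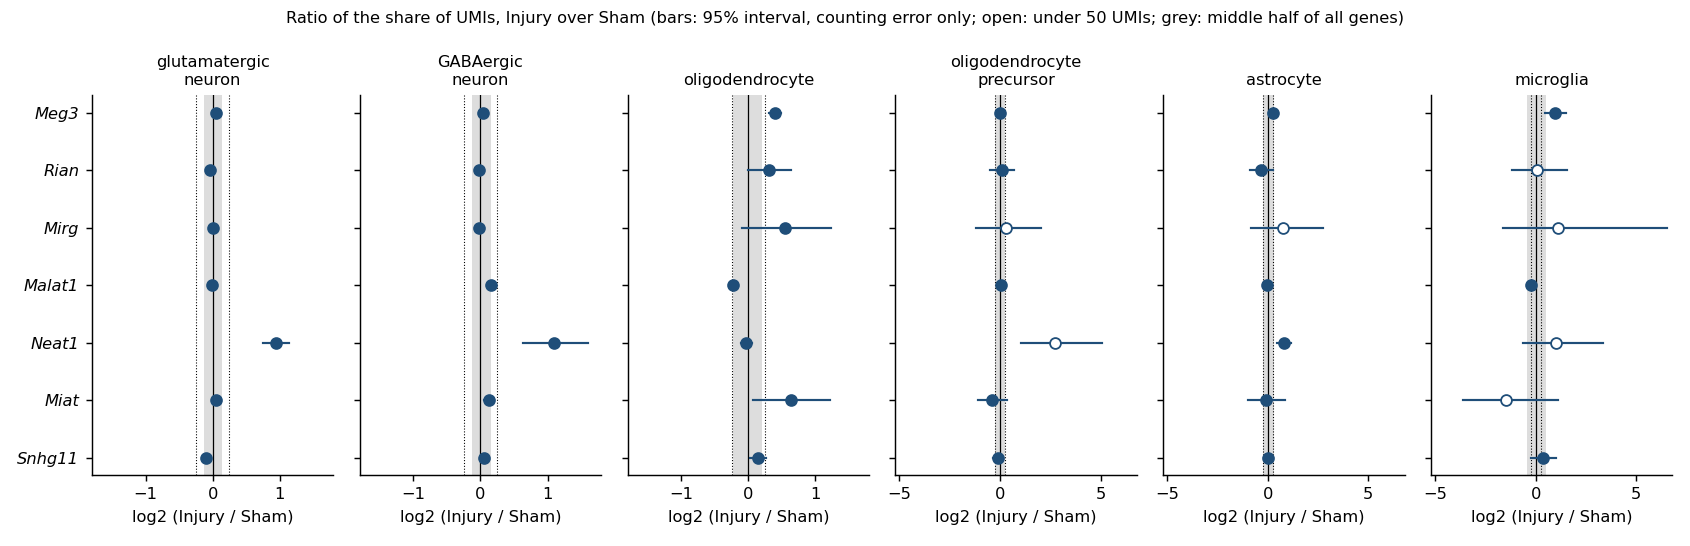
Ratio of the share of UMIs in the Injury library to that in the Sham library (log2 axis) for each RNA and class; bars are 95% intervals for counting error, open points have under 50 UMIs, the grey band holds the middle 50% of all genes tested in the class and dotted lines mark 0.25 in size. In both neuron classes the points of 6 RNAs lie between -0.09 and 0.16 and Neat1 lies at 0.95 and 1.10; the axis of the last 3 panels is wider.

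Meg3, the first RNA of the imprinted domain, held 1.11% of the UMIs of Sham and 1.16% of Injury glutamatergic neurons, and 1.13% and 1.16% in GABAergic neurons. Every glutamatergic nucleus of the Sham library had a Meg3 UMI, with a mean of 100.5 UMIs a nucleus. The log2 ratio was 0.06 (0.05 to 0.06) in glutamatergic and 0.03 (0.03 to 0.04) in GABAergic neurons, small values in narrow intervals. Within 6 depth ranges from 500 to 15000 UMIs it was above 0 in 4 in each neuron class. It lay between -0.13 and 0.08 in glutamatergic and between -0.04 and 0.07 in GABAergic neurons. The lowest value came from glutamatergic nuclei of 500 to 2000 UMIs, at 1.19% in Sham and 1.08% in Injury. Among 19 neuron clusters, each with 50 or more nuclei in each library and named here by its leading gene, Meg3 was higher in Injury in 18, in 17 of them with the interval above 0, and in none did the ratio reach 0.25. The ratios ran from -0.0014 in the Ubash3b-led cluster to 0.17 in the Pde11a-led cluster. The clusters differed far more in level: in Sham Meg3 was lowest at 5758 CPM in the Ano1-led cluster and highest at 13491 in the Adamtsl3-led cluster, and the same clusters held the extremes in Injury, at 6225 and 14076.

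Rian, which hosts small nucleolar RNAs, stood at 1092 CPM in Sham and 1061 in Injury glutamatergic neurons, and at 991 and 976 in GABAergic neurons. Its ratio went the other way from that of Meg3, at -0.04 (-0.05 to -0.03) and -0.02 (-0.05 to 0.01), and Rian was lower in Injury in 15 of the 19 clusters. Counted against Meg3 from the same nuclei, there were 9.81 Rian UMIs per 100 Meg3 UMIs in Sham (9.75 to 9.87) and 9.17 in Injury (9.11 to 9.22) in glutamatergic neurons. Over the 19 clusters this quantity ranged from 8.14 to 13.5 in Sham and from 8.18 to 11.5 in Injury, with the highest value in the Oxt-led cluster in both. The intervals of the 2 libraries did not overlap in glutamatergic neurons, and both values lie within the range of the clusters.

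Mirg, the microRNA host at the far end, stood at 180.1 and 181.4 CPM in glutamatergic neurons and at 199 and 197 in GABAergic neurons. A Mirg UMI was found in 71.4% of Sham and 71.2% of Injury glutamatergic nuclei, and in 30.7% and 30.6% after each nucleus was thinned to 2000 UMIs. There were 1.62 and 1.57 Mirg UMIs per 100 Meg3 UMIs. Mirg was higher in Injury in 7 clusters and lower in 12, so the clusters had no common direction. The cluster with the largest difference was the Oxt-led one, of 55 and 145 nuclei, at 245 and 174 CPM. The levels of the 3 RNAs followed each other over the 19 clusters: Pearson's r of log2 levels was 0.88 for Meg3 and Rian, 0.83 for Rian and Mirg, and 0.75 for Meg3 and Mirg. These r values are a description, since the clusters share libraries and totals. The protein-coding and other neighbours of the domain with 50 or more UMIs, among them Dlk1 and Rtl1, did not reach the difference of 0.25 in either neuron class (0 of 4 of the 6 listed, with a median ratio of 0.05 in glutamatergic and 0.13 in GABAergic neurons). Of 10 other imprinted genes tested, 2 passed it in glutamatergic neurons, Nespas higher at 0.41 and Ndn lower at -0.31, beside 26.7% of all genes. In GABAergic neurons 4 passed it, beside 29.9% of all genes: Peg13, Magel2 and Nespas were higher and Ndn was lower.

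Malat1, the speckle RNA, was the most abundant RNA in all 6 classes and both libraries. It held 3.00% of the UMIs of Sham and 2.99% of Injury glutamatergic neurons, a log2 ratio of -0.01 (-0.01 to -0.01). In GABAergic neurons it held 2.83% and 3.17%, a ratio of 0.16 (0.16 to 0.17). The 2 GABAergic clusters differed both ways, at 0.26 in the Gad2-led and -0.06 in the Ubash3b-led cluster, each with its interval clear of 0. The near-equal sums in glutamatergic neurons covered clusters that differed both ways: Malat1 was higher in Injury in 11 of the 17 glutamatergic clusters and lower in 6, from -0.34 in the Adgrg6-led cluster (3.15% in Sham) to 0.63 in the Ebf2-led cluster. Weighted by nuclei rather than by UMIs, the glutamatergic ratio was 0.05, with the opposite sign. Shallow nuclei differed more. Within 6 depth ranges from 500 to 15000 UMIs, the glutamatergic ratio lay between -0.02 and 0.26, above 0 in 5. Malat1 held 3.32% and 3.97% in glutamatergic nuclei of 2000 to 3500 UMIs, and 2.91% and 2.87% in those of 10000 to 15000. In GABAergic neurons the ratio lay between 0.09 and 0.51, above 0 in 6. Nuclei above 15000 UMIs were in none of these ranges.

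The share of Malat1 in single nuclei was more widely spread in the Injury library. The median glutamatergic nucleus held 2.93% in Sham and 3.00% in Injury, but the quartiles were 2.31% and 3.68% in Sham and 2.02% and 4.15% in Injury. The third quartile was thus 1.59 times the first in Sham and 2.06 times in Injury, and in GABAergic neurons 1.62 and 1.77 times. The median itself was 2.64% and 3.17% in GABAergic neurons, and cluster medians differed both ways, from 3.18% in Sham and 2.19% in Injury in the Adgrg6-led cluster to 2.44% and 3.84% in the Oxt-led one. This ratio of quartiles was larger in Injury in 18 of the 19 clusters, all but the Oxt-led one, in 19 of 19 with only nuclei of 5000 to 10000 UMIs, and in 18 without called doublets. For Meg3 it was larger in Injury in 12 of 19 clusters and for Snhg11 in 17 of 19. With only nuclei of 5000 to 10000 UMIs these counts were 10 and 14, and without called doublets 10 and 16.

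Both ends of the distribution held more nuclei in the Injury library. Malat1 was under 1% in 0.429% of Sham glutamatergic nuclei (50 nuclei, 0.319 to 0.565) and in 5.90% of Injury ones (718 nuclei, 5.49 to 6.34). It was at 5% or more in 5.63% of Sham (5.22 to 6.06) and 13.2% of Injury nuclei (12.7 to 13.9). The share of nuclei with 5% or more was higher in Injury in 19 of 19 clusters and that of nuclei under 1% in 15 of 19. Of the 718 Injury nuclei under 1%, 217 lay in the C6-led cluster, 153 in the Adgrf5-led, 95 in the Adgrg6-led and 90 in the Adamts9-led cluster. The first quartile was 2.45% in Sham and 1.59% in Injury in the C6-led cluster, 2.33% and 1.40% in the Adgrf5-led, 2.91% and 1.37% in the Adamts9-led, and 2.67% and 1.13% in the Adgrg6-led cluster. The highest share of nuclei under 1% in Sham was 11.4%, in the Ebf2-led cluster of 70 nuclei. In the Adgrg6-led cluster 1 of 512 Sham nuclei and 95 of 444 Injury nuclei (21.4%, 17.7 to 25.5) were under 1%. These 4 clusters were picked after their values were seen.

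**Figure D3:**
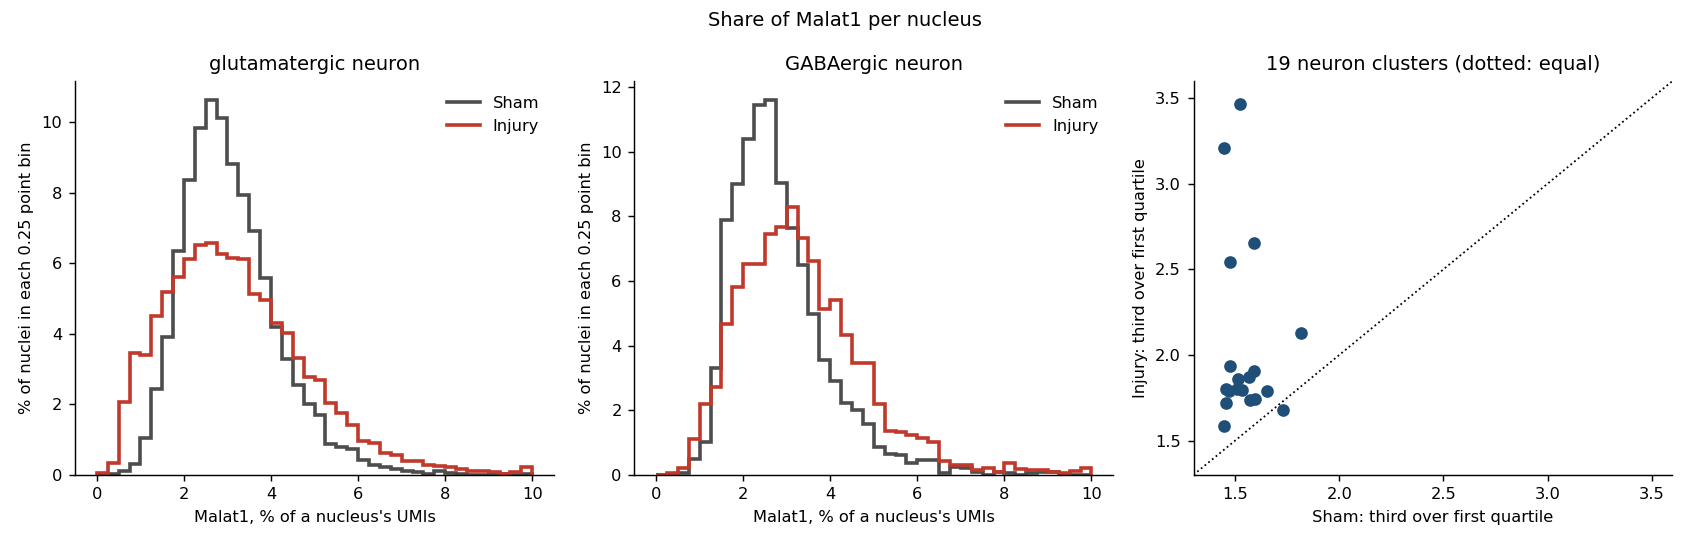
Share of Malat1 per nucleus: the left and middle plots give the percentage of nuclei (y axis) in each bin of 0.25 percentage points (x axis) for glutamatergic and GABAergic neurons of the Sham and Injury libraries, the last bin holding all higher shares; the right plot gives the third over the first quartile in each of 19 neuron clusters, Sham on the x axis and Injury on the y axis. The Injury outline is lower and wider, and 18 of the 19 points lie above the line of equal values.

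Depth and other RNAs moved with this share. Glutamatergic nuclei under 1% had a median of 5397.5 UMIs in Sham and 8059.5 in Injury, and those at 5% or more had 5742 and 5638. Those at 2% to 3% had medians of 8739.5 and 8780 UMIs. Snhg11 held 0.532% of UMIs in Sham nuclei under 1% Malat1, 0.501% at 1% to 2% and 0.810% at 5% or more, and 0.405%, 0.453% and 0.805% in Injury. Ribosomal protein genes held 0.217% and 0.254% at these ends in Sham and 0.139% and 0.198% in Injury, and were lower in Injury in all 6 classes. Called doublets made up 2% of Sham and 1.53% of Injury nuclei under 1%, and 5.34% and 9.25% of those at 5% or more. The part of depth or RNA quality in the wider spread was not tested beyond the range of 5000 to 10000 UMIs given above.

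Of 12 genes for proteins of nuclear speckles, 5 passed the difference of 0.25 in glutamatergic neurons and all 5 were lower in Injury: Srsf2 (110 and 64.6 CPM, ratio -0.77), Srsf7 (-0.46), Srsf6 (-0.43), Pnn (-0.39) and Srsf1 (-0.32). Over all genes tested 26.7% passed it, 12.4% being lower. The first 3 and Srsf1 are splicing factors of the SR family. The median of the 12 was -0.19, beside 0.01 over all genes tested. In GABAergic neurons 3 of 12 passed it, Srsf1, Srsf2 and Srsf6, again lower, beside 29.9% of all genes that passed it and 12.9% that were lower. Astrocytes had 7 of 12 past it, all lower (median -0.38), beside 52.1% of all genes, 25.2% being lower. In oligodendrocytes and in precursors 6 of 12 each passed it, all lower (medians -0.27 and -0.26). Of all genes, 44% and 45.6% passed it there, 22.8% and 22.7% being lower. Microglia had 3 of 5 tested past it, 2 higher and 1 lower, beside 70.1% of all genes. These are messenger RNA levels. Malat1 summed over each class did not reach this difference.

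Neat1, whose row does not tell the short polyadenylated form from the long form, was highest in oligodendrocytes. It stood at 1267 CPM in Sham (1583 UMIs, 1206 to 1331) and 1241 in Injury oligodendrocytes (3741 UMIs, 1201 to 1281), a log2 ratio of -0.03 (-0.12 to 0.06). A Neat1 UMI was found in 70.2% of Sham and 71.8% of Injury oligodendrocytes, beside 2.64% and 5.14% of glutamatergic neurons and 2.41% and 4.75% of GABAergic neurons. After thinning to 2000 UMIs the neuron shares were 0.762% and 1.38% in glutamatergic and 0.827% and 1.53% in GABAergic nuclei, against 64.4% (174 nuclei) and 72.7% (484 nuclei) of oligodendrocytes. The lineage was not uniform: oligodendrocyte precursors had 9.34 CPM in Sham (3 UMIs, 1.93 to 27.3) and 62.0 in Injury (32 UMIs, 42.4 to 87.6), where the oligodendrocyte markers also stood higher in Injury, at 305 and 622, and the oligodendrocyte cluster led by 9630013A20Rik, of 65 and 142 nuclei, had 95.7 and 279.9. The other oligodendrocyte clusters of the class lay between 1048 and 1604.

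In neurons Neat1 was higher in the Injury library at both levels of grouping, class and cluster. The log2 ratio was 1.10 (0.63 to 1.60) in GABAergic neurons, at 3.38 (48 UMIs) and 7.26 CPM (170 UMIs). Neat1 was higher in Injury in 18 of 19 clusters, with the interval above 0 in 13, and the 19th, the Ebf2-led cluster, had 0 Sham and 2 Injury UMIs. Under every one of 13 other ways of processing, the glutamatergic ratio stayed past 0.25, between 0.94 and 1.69. Within 6 depth ranges up to 15000 UMIs it lay between 0.50 and 1.21. After thinning to 2000 UMIs a nucleus held a mean of 0.00788 Neat1 UMIs in Sham and 0.0139 in Injury. A Neat1 UMI in a neuron was nearly always a single one: in glutamatergic neurons 16 Sham and 54 Injury nuclei had 2 or more, and none had 5.

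RNA of oligodendrocytes in neuron nuclei was measured beside it. The 9 oligodendrocyte markers, all with UMIs in both libraries, summed to 57.2 CPM in Sham and 74.1 in Injury glutamatergic neurons and to 99.1 and 126 in GABAergic neurons, so they were higher in Injury too, by less than Neat1. Per 100 oligodendrocyte marker UMIs there were 6.90 Neat1 UMIs in Sham oligodendrocytes (6.55 to 7.26) and 6.96 in Injury ones (6.73 to 7.19). In glutamatergic neurons the same ratio was 5.45 in Sham (4.87 to 6.10), below the oligodendrocyte value, and 8.11 in Injury (7.49 to 8.77), above it. In GABAergic neurons it was 3.41 (2.50 to 4.55) and 5.76 (4.91 to 6.73), below it in both libraries. By cluster, the interval lay above the oligodendrocyte value in 0 of 19 clusters in Sham and in 5 of 19 in Injury, and below it in 4 and 1. In nuclei without a single oligodendrocyte marker UMI (7448 Sham and 6693 Injury glutamatergic nuclei) Neat1 stood at 2.94 and 6.29 CPM, a ratio of 1.10 (0.83 to 1.36), and in such GABAergic nuclei the ratio was 1.22 (0.59 to 1.89). In nuclei with 1 or more such UMIs it stood at 3.37 and 5.74 CPM in glutamatergic neurons, a ratio of 0.77 (0.48 to 1.06), and the GABAergic ratio was 1.03 (0.31 to 1.81). These intervals overlap within each class, and the difference was not tested. All 11657 Sham glutamatergic nuclei together held 6013 oligodendrocyte marker UMIs, and the 12160 Injury ones held 8410. At such low counts a nucleus without a marker UMI can still hold oligodendrocyte RNA, so this split cannot set that RNA apart. With free RNA subtracted, 18.9% of the Neat1 UMIs of Sham and 32.1% of those of Injury glutamatergic neurons remained, and in GABAergic neurons 0% remained in both libraries.

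**Figure D4:**
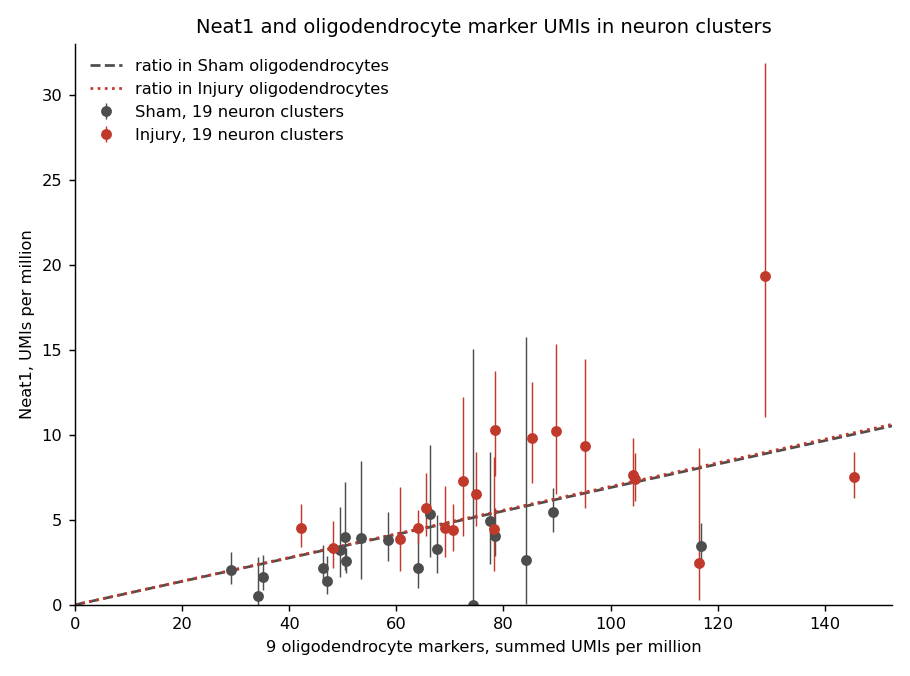
Neat1 (y axis) against the summed level of 9 oligodendrocyte markers (x axis), both in CPM, in 19 neuron clusters of the Sham and Injury libraries; vertical bars are the 95% intervals of the ratio of the counts, scaled to the level, and the lines give the ratio in oligodendrocytes. Most Sham points lie on or under the line, and 5 Injury clusters have an interval above it.

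Astrocytes held an intermediate level of Neat1, 187 CPM in Sham (85 UMIs) and 321 in Injury (460 UMIs), a ratio of 0.78 (0.44 to 1.13). In astrocytes 2 of 6 members with 50 or more UMIs passed 0.25, Neat1 and Rian (-0.32, -0.86 to 0.24), beside 52.1% of 5906 genes. The Rian direction was reversed in nuclei of 5000 to 10000 UMIs (1.15) and with free RNA subtracted (0.54). A cluster led by A2m and Gfap, the intermediate filament of reactive astrocytes, had 0 Sham and 93 Injury nuclei and a Neat1 level of 528. Without it the astrocyte ratio was 0.44 (0.09 to 0.81), at 187 and 255. There were 39.5 and 61.6 Neat1 UMIs per 100 oligodendrocyte marker UMIs in astrocytes, above the oligodendrocyte ratio in both libraries. Of 10 genes for paraspeckle proteins, 1 passed the difference in glutamatergic neurons, Cpsf6 (lower, -0.37), and 2 in GABAergic neurons, Rbm14 (higher, 0.36) and Cpsf6 (lower, -0.26), beside 26.7% and 29.9% of all genes. In astrocytes 5 of 9 tested passed it, all lower (Nono, Tardbp, Hnrnpk, Hnrnph3 and Cpsf6), beside 25.2% of all genes that were lower there. In oligodendrocytes 7 of 10 passed it, 6 lower and Rbm14 higher, beside 44% of all genes, 22.8% being lower. In oligodendrocyte precursors 4 of 6 tested passed it, all lower, beside 45.6% of all genes, 22.7% being lower. Nono and Sfpq, core proteins of paraspeckles, stood at ratios of -0.09 and -0.17 in glutamatergic neurons.

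Miat stood at 170.0 CPM in Sham (168 to 173) and 176.5 in Injury glutamatergic neurons (174 to 179), a ratio of 0.05 (0.02 to 0.08), and at 159 and 174 in GABAergic neurons, a ratio of 0.13 (0.06 to 0.21). The glutamatergic direction varied with depth: the ratio was -0.0091 in nuclei of 5000 to 10000 UMIs. Of 6 depth ranges up to 15000 UMIs the ratio was above 0 in 2 (-0.09 to 0.12), beside 6 of 6 in GABAergic neurons. In glutamatergic nuclei of 10000 to 15000 UMIs Miat held 0.0162% in Sham (0.0157 to 0.0166) and 0.0175% in Injury (0.0171 to 0.0180). It was the member with the widest range of levels over neuron clusters apart from Neat1: from 85.3 in the Ano1-led to 296.1 in the Ptprq-led cluster in Sham, and from 73.9 to 296.0 in the same clusters in Injury. Miat was higher in Injury in 13 of 19 clusters, from -0.21 in the Ano1-led to 0.38 in the Oxt-led cluster. The gene opposite to it, Gm26953, had 6.99 and 6.42 CPM in glutamatergic neurons, beside the Miat levels above; whether reads were counted by strand is not given in the sources used here. Of 3 measured genes for Miat partners, 1 passed 0.25 in glutamatergic neurons, Srsf1, which was lower. Over all genes tested 26.7% passed it, 12.4% being lower. Sf1 and Celf3 stood at -0.05 and -0.11 there.

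Snhg11 held 0.611% of the UMIs of Sham and 0.574% of Injury glutamatergic neurons, a ratio of -0.09 (-0.10 to -0.09). In GABAergic neurons it held 0.609% and 0.632%, a ratio of 0.06 (0.04 to 0.07). The 2 GABAergic clusters differed both ways, at 0.09 in the Gad2-led and -0.05 in the Ubash3b-led cluster. With the kept-out neuron clusters put in, the GABAergic ratio was -0.0076. Snhg11 was lower in Injury in 13 of 19 clusters, from -0.27 in the Adgrg6-led to 0.46 in the Oxt-led cluster. Its share was lower in deeper nuclei of both libraries, from 0.817% in Sham glutamatergic nuclei of 500 to 2000 UMIs to 0.577% in those of 10000 to 15000, and from 0.785% to 0.544% in Injury. Within 6 depth ranges up to 15000 UMIs its glutamatergic ratio lay between -0.08 and 0.04 and was above 0 in 2. Deeper nuclei were in none of these ranges. Among other long noncoding RNAs, of 29 tested in glutamatergic neurons 12 passed 0.25, and 10 of those were lower in Injury, beside 26.7% of all genes, 14.3% higher and 12.4% lower. They include the snoRNA hosts Gas5 (47.4 and 37.8 CPM, ratio -0.33), Snhg20 (-0.64), Snhg3 (-0.56), Snhg6 (-0.49), Snhg8 (-0.46), Snhg5 (-0.45) and Snhg18 (-0.27), together with Epb41l4aos (-0.60), Tug1 (-0.35) and Xist (-0.30), the RNA of the inactive X chromosome. Tsix (0.25), which overlaps Xist on the opposite strand and cannot be told apart from it in reads counted without strand, and Dlx6os1 (1.51, from 48 and 148 UMIs) were higher. In GABAergic neurons 11 of 27 passed it, 7 lower and 4 higher, beside 29.9% of all genes, 12.9% lower and 17.1% higher, with Snhg20 at -0.68 and Tsix at 0.57.

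In oligodendrocytes 4 of the 7 members passed 0.25, all higher in Injury, beside 44% of 8425 genes in either direction and 21.2% that were higher. They were Meg3 at 1025 and 1348 CPM (ratio 0.40, 0.30 to 0.49), Rian at 87.3 and 108.4 (0.31, -0.0033 to 0.64), Mirg at 20.8 and 30.5 (0.55, -0.09 to 1.24) and Miat at 27.2 and 42.1 (0.63, 0.07 to 1.22). All are RNAs of neurons, and their oligodendrocyte levels were 9.20%, 7.99%, 11.6% and 16.0% of the glutamatergic levels in Sham. The 9 neuron markers summed to 6.96% of their glutamatergic level there and to 7.65% in Injury, where the 4 RNAs stood at 11.6%, 10.2%, 16.8% and 23.9%. Taken singly, the neuron markers lay between 5.18% and 20.2% in Sham and between 4.74% and 31.4% in Injury. The 4 RNAs lay within these ranges. Meg3 UMIs per 100 neuron marker UMIs were 126 (116 to 137) in Sham and 155 (147 to 162) in Injury oligodendrocytes, beside 95.6 and 101 in glutamatergic and 120 and 126 in GABAergic neurons. With free RNA subtracted, at a share estimated from the 9 neuron markers (7.70% and 8.91% of UMIs), 17.8% of the Meg3 UMIs remained in Sham and 27.5% in Injury, 6.55% and 19.03% of Rian, 33.9% and 49.2% of Mirg, and 52.7% and 63.7% of Miat. In nuclei of 5000 to 10000 UMIs the Miat ratio was reversed, at -0.93. Malat1 held 6.40% of the UMIs of Sham and 5.46% of Injury oligodendrocytes, a ratio of -0.23 (-0.24 to -0.22). Different clusters made up parts of this class in the libraries: a cluster led by C030029H02Rik had 41 and 719 nuclei and one led by Fbxw15 had 302 and 21. In the largest cluster of the class, of 336 and 853 nuclei and also led by C030029H02Rik, the ratio was 0.40 (0.27 to 0.52) for Meg3, -0.32 (-0.34 to -0.31) for Malat1 and -0.02 (-0.12 to 0.09) for Neat1.

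The remaining glial classes were small. In oligodendrocyte precursors 1 of 5 members with 50 or more UMIs passed 0.25, Miat at 93.4 and 71.7 CPM (-0.38, -1.11 to 0.36), beside 45.6% of 3044 genes. In nuclei of 5000 to 10000 UMIs its ratio was 0.35. Neat1 had 3 and 32 UMIs there, too few for that count. In microglia 2 of 3 members passed it, Meg3 at 1092 and 2147 CPM (0.97, 0.48 to 1.51) and Snhg11 (0.37, from 27 and 225 UMIs), beside 70.1% of 982 genes. With free RNA subtracted in the same way, 0% of Meg3 remained in both libraries, and 4.81% of Snhg11 in Sham and 0% in Injury. With the nuclei clustered without integration the Meg3 ratio was -0.20. Without called doublets the ratio was 0.028 for Snhg11 and 1.13 for Meg3. The Sham microglia rest on 27 nuclei with 32038 UMIs in all, and 34 and 275 UMIs of neuron markers lay in Sham and Injury microglia.

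Over the 27 clusters with 50 or more nuclei in each library, and 13142 genes, the genes with the pattern of log2 levels most like that of each member were as follows. Meg3 was most like Rian (Pearson's r = 0.995), Ube3a (0.992) and Snhg14 (0.990), Rian like Meg3, Snhg14 and Mirg, and Mirg like Rian, Meg3 and Snhg11. Snhg11 was most like Mirg (0.985), Rian and Snhg14. Miat was most like Plppr4 (0.941), Jag2 and Syngr3, and Neat1 like Inf2 (0.972), A230001M10Rik and Ttyh2. Malat1 had the least close partners, Tsc22d3 (0.859), Rab11b and Fabp5. These values mostly rank the gap between neurons and glia, and the clusters share libraries and free RNA. Over the 19 neuron clusters alone the closest gene was Cep170b for Meg3 (0.922), Pde9a for Rian (0.921), B830012L14Rik for Mirg (0.957), Maip1 for Malat1 (0.818), Pwp1 for Neat1 (0.956), Slc22a4 for Miat (0.764) and Plpbp for Snhg11 (0.921).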

How the data were processed

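Nuclei of 4 thalami per group were pooled and sequenced as 1 library. Per the labels, the authors used bcl2fastq and Cell Ranger 6.0.2 with GRCm38 (mm10) and Seurat 4.0. The deposited values are whole-number counts of UMIs per gene and barcode. The annotation release, the use of intronic reads and the strand setting are not given in the sources used here. Gene symbols, spans and exon lengths came from GENCODE M21.

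Nuclei with 200 to 7500 genes and at most 2% mitochondrial UMIs were kept, as in the study. They were integrated with Seurat 5.3.0 (R 4.3.3) on 2000 variable genes, of which 1990 remained after the members and listed genes were left out, with 30 components and a resolution of 0.5, and classes were named from marker genes. Doublets were called at 0.8% per 1000 nuclei with Scrublet in scanpy 1.11.5 and stayed in, being left out as an alternative. Counts were summed per class and library (numpy 2.4.6, pandas 2.3.3) and divided by the class total, with exact intervals from scipy 1.17.1. With 1 library a group, no test was made. A difference was called at 0.25 on the log2 scale among genes with 50 or more UMIs in both libraries together. Alternatives included TMM factors from edgeR 4.0.16, thinning to 2000 UMIs and other filters. The code was tested on simulated data.

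All 7 members were named. From the lists, genes past 0.25 were named, and for likeness the 3 closest genes over clusters with 50 or more nuclei in each library. The members and lists were chosen with earlier results of these data known.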

Additional observations from a re-analysis of the deposited data

How the results depend on the processing

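No paired analysis was possible because Sham and Injury hold 1 library each, with no test made, so no replicate could be left out either. In glutamatergic neurons the log2 ratio moved beyond its counting interval in these cases, and the cause was not tested. With TMM factors it was 0.048 for Meg3, -0.016 for Malat1 and -0.10 for Snhg11. As a mean of shares per nucleus it was 0.041 for Meg3, -0.071 for Rian, 0.055 for Malat1 and -0.054 for Snhg11. In nuclei of 5000 to 10000 UMIs it was 0.031 for Meg3, -0.081 for Rian, 0.050 for Malat1, -0.0091 for Miat and -0.062 for Snhg11. Without called doublets it was 0.050 for Meg3 and -0.023 for Malat1, and without integration 0.052 for Meg3. With free RNA subtracted it was 0.060 for Meg3, -0.014 for Malat1 and 1.69 for Neat1. As a mean within clusters it was 0.076 for Meg3, -0.053 for Rian, -0.029 for Mirg, 0.060 for Malat1, 1.26 for Neat1 and -0.081 for Snhg11. In alternatives added after the data were seen, with the kept-out neuron clusters put in, it was 0.025 for Meg3, -0.075 for Rian, -0.023 for Mirg, 0.035 for Malat1 and -0.12 for Snhg11, and in nuclei with no oligodendrocyte marker UMI 0.040 for Meg3, 0.011 for Malat1 and -0.074 for Snhg11. The sign differed from the reported one under 2 of 13 alternatives for Mirg, 5 for Malat1 and 1 for Miat, and under 0 of 13 for Meg3, Rian, Neat1 and Snhg11.

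Ratios past 0.25 that changed sign were in glial classes. In nuclei of 5000 to 10000 UMIs, Miat was at -0.93 in oligodendrocytes and 0.35 in precursors, and Rian at 1.15 in astrocytes. With free RNA subtracted Rian was at 0.54 in astrocytes, and without integration Meg3 was at -0.20 in microglia. Of 454 ratios under alternatives, 366 stayed within their interval, 83 moved and 5 reversed, counting as reversed only a ratio that was past 0.25 as reported. The share of genes past 0.25, among genes with 1000 or more UMIs, was 13.7% in glutamatergic neurons, 11.2% in GABAergic neurons, 25.1% in oligodendrocytes, 7.78% in precursors (90 genes), 29.9% in astrocytes and 0% in microglia, where only 2 genes had that many. Depth limits Neat1 in neurons and the members with under 50 UMIs in precursors and microglia.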

Other observations

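Some of the clusters kept out of the classes held the following levels, in CPM. In the Injury cluster led by 4921539H07Rik, of 281 nuclei and none in Sham, Malat1 stood at 56227, Meg3 at 7118, Snhg11 at 3423, Miat at 234 and Neat1 at 9.03. In the Injury cluster led by Glis3, Maml2 and Gpc4, of 220 nuclei and none in Sham, Malat1 stood at 47113, Meg3 at 3156, Snhg11 at 1244, Miat at 214 and Neat1 at 23.8. Both had Malat1 above and Meg3 and Snhg11 below the class level of glutamatergic neurons. In the GABAergic cluster led by Myo5b, of 4 Sham and 412 Injury nuclei, the Injury levels were 33742 for Malat1, 13893 for Meg3, 4608 for Snhg11 and 7.28 for Neat1. In a cluster led by Col27a1, of 195 and 192 nuclei, Malat1 stood at 46352 and 47050 and Meg3 at 13365 and 13227. In a shallow cluster led by Atp13a5, of 262 and 352 nuclei, Malat1 stood at 30487 and 46583 and Neat1 at 29.9 and 44.7, from 7 and 21 UMIs. A cluster led by Anln, with 261 and 583 nuclei, scored highest for oligodendrocyte markers. It was left unnamed, with few UMIs (a median of 2042) and no marker among its leading genes, so the oligodendrocyte class does not hold it. Neat1 stood there at 1717 in Sham and 1487 in Injury and Malat1 at 58260 and 45513.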
